A study of Mus musculus with 15 samples.

Results

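Insulin-like growth factor (IGF) signalling in the arthritic mouse joint is described here through 9 genes: the ligands Igf1 and Igf2, the receptor Igf1r, and the binding proteins Igfbp2, Igfbp3, Igfbp4, Igfbp5, Igfbp6 and Igfbp7. The members are the rows of the count table that carry these gene names, 9 of the 26688 genes listed. Polyadenylated RNA from joints of the forelimb was sequenced, with 15 libraries in all and 5 in each of 3 groups of wild-type male DBA/1 mice aged 8 weeks at assignment. The first group, CIA+F20, had collagen-induced arthritis (CIA), raised by a priming and a booster injection of bovine type II collagen in Freund's adjuvant, and then oral F20, a compound that the labels give by code name only, in daily doses of 10 mg/kg over 21 days. The second group, CIA, was immunised in the same way and, like the first, entered the study once its arthritis index had passed 5, and no dosing is stated for it. The third group, healthy, was not immunised. Joint capsule, synovium and the soft tissue around the joint of both forelimbs were taken after removal of the skin and most of the muscle. No label says that each library is 1 separate mouse, so the p-values below measure the spread between libraries.

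IGF1 and IGF2 are small secreted peptides related to insulin that bind the receptor tyrosine kinase IGF1R, which signals for growth and survival through the PI3K-AKT-mTOR and Ras pathways. Most IGF outside cells is held by the IGF-binding proteins, which lengthen its life and can block or release it, and proteases such as PAPP-A free it by cutting them. In joints, IGF1 is known as a factor that drives cartilage matrix synthesis, and in muscle the same pathway is known for controlling fibre mass.

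Igf1r, Igfbp4 and Igfbp3 are the 3 members that differed between CIA and healthy joints in the test described below, so the reference promoter of each is shown. Each window runs from 250 bases before to 50 bases after the RefSeq transcription start on GRCm38.p6, is written 5′ to 3′ on the strand of the gene, and comes from the reference genome and not from DBA/1 mice. Capitals mark matches, searched on both strands, to the GC box GGGCGG, which Sp1 family factors bind, to the common core promoter form TATAAA, or to its variant, which reads TATATA. The windows lie at chr7:67952007-67952306 on the plus strand for Igf1r, chr11:99040994-99041293 on the plus strand for Igfbp4 and chr11:7213874-7214173 on the minus strand for Igfbp3.
Igf1r: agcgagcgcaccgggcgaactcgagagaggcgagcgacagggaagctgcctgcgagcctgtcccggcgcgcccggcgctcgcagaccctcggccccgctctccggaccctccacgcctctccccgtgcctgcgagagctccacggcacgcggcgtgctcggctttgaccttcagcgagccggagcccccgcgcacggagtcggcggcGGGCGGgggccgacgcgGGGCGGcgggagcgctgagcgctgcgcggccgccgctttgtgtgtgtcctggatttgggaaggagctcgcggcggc
Igfbp4: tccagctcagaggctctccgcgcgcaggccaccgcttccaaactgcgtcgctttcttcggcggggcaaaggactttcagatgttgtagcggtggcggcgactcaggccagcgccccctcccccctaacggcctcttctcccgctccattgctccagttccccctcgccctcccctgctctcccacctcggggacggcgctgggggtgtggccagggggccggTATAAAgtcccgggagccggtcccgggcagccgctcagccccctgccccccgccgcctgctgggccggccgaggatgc
Igfbp3: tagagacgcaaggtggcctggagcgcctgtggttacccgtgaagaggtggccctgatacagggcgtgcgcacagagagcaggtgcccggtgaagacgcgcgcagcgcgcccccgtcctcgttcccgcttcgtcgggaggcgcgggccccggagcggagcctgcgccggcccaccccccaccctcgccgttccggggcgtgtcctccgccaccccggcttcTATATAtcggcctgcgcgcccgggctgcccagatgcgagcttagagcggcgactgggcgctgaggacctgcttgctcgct
The Igf1r window held 2 GC boxes and neither of the other motifs, the Igfbp4 window held 1 TATAAA and the Igfbp3 window held 1 TATATA. Of the 32851 RefSeq windows of the same length, 35.7% held GGGCGG, 13.6% held TATAAA and 5.67% held TATATA, and matches of the last 2 motifs can overlap each other. All 3 windows were rich in G and C, at 76.0% for Igf1r, 71.3% for Igfbp4 and 71.7% for Igfbp3, against a median of 52.7% over all windows. Of 4 further motifs searched in the 13 windows of the 9 members, those of NF-kB and STAT had no match. The AP-1 motif TGACTCA and the E-box CACGTG had 1 match each, both in windows of Igfbp2. Over all windows, the shares with a match were 0.411% for NF-kB, 8.3% for STAT, 5.2% for AP-1 and 7.15% for the E-box.

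Library totals ran between 18627303 and 34247317 counts, and no pair of libraries within a group agreed within sampling noise. Skeletal muscle transcripts made up a large and uneven part of the tissue. Summed counts of 11 muscle markers took 8.95% to 10.0% of CIA+F20 libraries, 5.33% to 9.65% of CIA libraries and 9.40% to 10.3% of healthy libraries, and the low values were those of CIA 1 (6.90%), CIA 2 (6.66%) and CIA 4 (5.33%). In CIA joints 9 of the 11 muscle markers were lower than in healthy joints, and in CIA+F20 joints 5 of the 11 were higher than in CIA joints. All 10 macrophage markers were higher in CIA than in healthy joints, and 8 of the 10 fell in CIA+F20 joints relative to CIA joints. Their sums were 0.0261% to 0.0465% of counts in CIA+F20, 0.0486% to 0.143% in CIA and 0.00790% to 0.0303% in healthy libraries. Osteoclast markers were higher in CIA than in healthy joints for 5 of 6 and lower in CIA+F20 than CIA joints for 5 of 6, with sums of 0.00154% to 0.00819% in CIA+F20, 0.0118% to 0.0643% in CIA and 0.00125% to 0.00380% in healthy libraries. All 6 neutrophil markers were higher in CIA than in healthy joints, with sums of 0.0194% to 0.0617% in CIA+F20, 0.0281% to 0.314% in CIA and 0.00321% to 0.0318% in healthy libraries. Red cell markers were higher in CIA than in healthy joints for 5 of 6, with sums of 0.0472% to 0.131% in CIA+F20, 0.0251% to 0.325% in CIA and 0.00667% to 0.0887% in healthy libraries. None of the neutrophil and red cell markers was called in CIA+F20 versus CIA. For the 10 fibroblast markers the sums were 0.150% to 0.269% in CIA+F20, 0.140% to 0.857% in CIA and 0.0427% to 0.298% in healthy libraries, and 1 of the 10 was higher in CIA than in healthy joints. None of these muscle, macrophage, osteoclast, neutrophil and fibroblast markers was at 0 in any library, nor was any of the 6 synovial lining markers, while the red cell marker Hba-a2 and the cartilage markers Matn1 and Matn3 were at 0 in some libraries. Healthy 4, with the lowest total, had 817 reads of T cell markers, where the other healthy libraries had 4 to 39. Its fibroblast sum was 0.0427%, with 0.170% the next lowest healthy value. Within its group it had the least Igf1, Igfbp4, Igfbp5 and Igfbp6 and the most Igfbp3 and Igfbp7. It also had the most Igf1r, by a small margin (26.5 CPM against 26.1 in healthy 2). The part of its tissue mix in these levels was not tested.

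Across the 9 genes, binding protein RNA far outweighed ligand RNA in every group. Levels were set side by side as CPM (counts scaled to a common library size) per kilobase of merged exons. Igfbp5, whose product binds IGFs in the extracellular matrix and is abundant in muscle and bone, stood first, with 99.9 ± 29.5 CPM per kilobase in CIA+F20 joints, 111 ± 27.2 in CIA joints and 116 ± 15.5 in healthy joints (SD, n = 5 each). Its lowest library lay above the highest library of every other member in each group. Igfbp5 alone supplied 73.0% ± 5.12 of the binding protein reads in CIA+F20 joints, 68.1% ± 7.54 in CIA joints and 76.0% ± 2.08 in healthy joints (SD, n = 5 each).

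Behind Igfbp5 the order changed with the group. Igfbp6 was second in CIA+F20 joints at 26.3 ± 9.22 CPM per kilobase and in healthy joints at 28.8 ± 11.7, whereas Igfbp4 was second in CIA joints at 30.9 ± 7.58 (SD, n = 5 each). Within each group, the ranges of Igfbp4, Igfbp6 and Igfbp7 overlapped from 1 rank to the next, so the order of these 3 is not separated beyond the spread. Igf1 and Igf1r were near each other, at 1.997 and 1.59 CPM per kilobase in CIA+F20 joints, 2.29 and 3.17 in CIA joints and 1.92 and 1.29 in healthy joints, and their ranges overlapped in all 3 groups. Igfbp2 and Igf2 were lowest everywhere, and their ranges overlapped too.

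**Figure D1:**
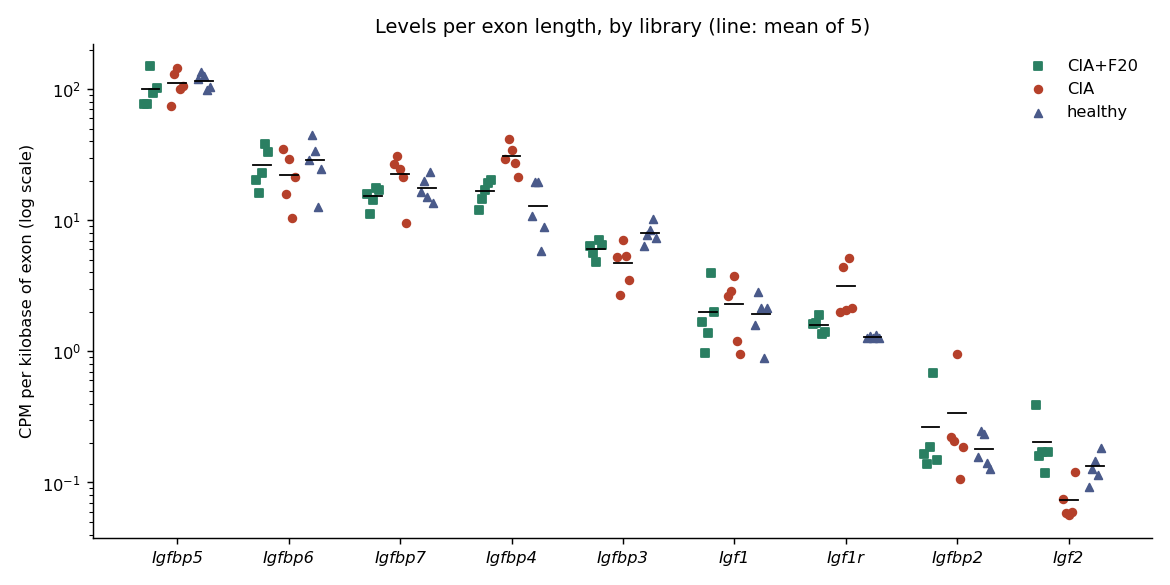
Level of each of the 9 genes in each library, as CPM per kilobase of exon on a log axis, with CIA+F20, CIA and healthy libraries side by side and a line at the mean of 5. Igfbp5 lies above all other members in every group, and Igfbp2 and Igf2 lie at the bottom.

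In arthritic joints the receptor and 1 binding protein were higher than in healthy joints and 1 binding protein was lower. Igf1r was 2.45-fold higher and Igfbp4 2.39-fold higher in CIA, and Igfbp3 fell by 0.75 on the log2 scale. In F20-treated arthritic joints Igf1r and Igfbp4 were lower than in untreated arthritic joints and the ligand Igf2 was higher. No member passed the test between CIA+F20 and healthy joints. These calls come from edgeR's quasi-likelihood test over all 15770 genes that passed a low-count filter, which all 9 members passed, with a Benjamini-Hochberg adjusted p under 0.05. The 3 comparisons share their groups, so they are not independent of each other.

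Set against the background, the count of called members was not large. In CIA versus healthy, 2 of 9 members were higher, where 26.0% of all genes tested were higher, and 1 of 9 was lower, where 19.5% were lower (45.5% called in either direction). In CIA+F20 versus CIA, 1 of 9 was higher, where 14.1% of genes were, and 2 of 9 were lower, where 15.5% were (29.6% in either direction). In CIA+F20 versus healthy, 0 of 9 members and 0 of all genes were called by edgeR (0.0%), with 0 members and 1388 genes at an unadjusted p under 0.05, and DESeq2 called 116 genes and no member. The median log2 fold change of the 9 members was 0.25 in CIA versus healthy, -0.19 in CIA+F20 versus CIA and 0.05 in CIA+F20 versus healthy, beside 0.07, -0.06 and 0.01 over all genes tested.

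**Figure D2:**
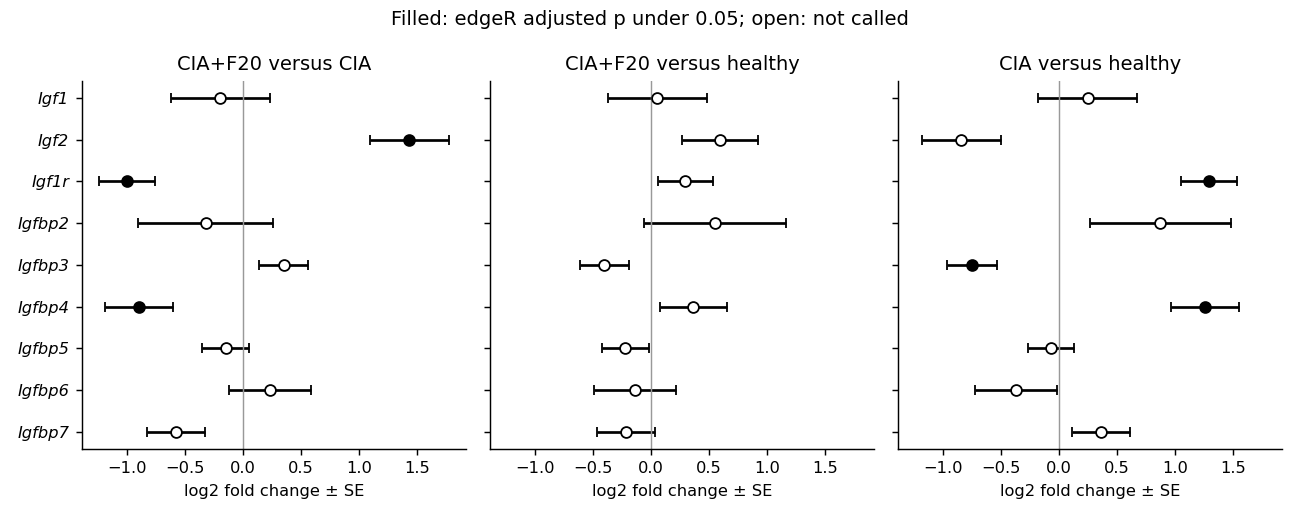
Fold change of each of the 9 genes in the 3 comparisons, as log2 ± SE from edgeR, with filled points for an adjusted p under 0.05 over all genes. Igf1r and Igfbp4 lie left of 0 in CIA+F20 versus CIA and right of 0 in CIA versus healthy, and no point is filled in CIA+F20 versus healthy.

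Igf1 (ENSMUSG00000020053, chr10:87694127-87772904 on the plus strand of GRCm39) encodes the main growth-promoting ligand. It had 17.1, 9.89, 14.1, 40.8 and 20.3 CPM in CIA+F20 joints, 26.9, 29.5, 38.6, 12.2 and 9.74 CPM in CIA joints, and 16.1, 29.3, 21.9, 9.17 and 21.9 CPM in healthy joints. The 3 groups overlapped across nearly their whole range. The log2 fold change was 0.25 ± 0.43 (SE) in CIA versus healthy (edgeR adjusted p = 0.658) and -0.19 ± 0.42 in CIA+F20 versus CIA (edgeR adjusted p = 0.749). Beside this, the fibroblast marker sum was 0.723%, 0.614% and 0.857% of counts in CIA 1, CIA 2 and CIA 3, the libraries with the most Igf1 in that group, and 0.163% and 0.140% in CIA 4 and CIA 5, those with the least. Its part in the spread was not tested.

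Igf2 (ENSMUSG00000048583, chr7:142204503-142220553 on the minus strand), the ligand that dominates in the fetus and is little expressed in most adult mouse tissues, was near the limit of these libraries, with 9 to 63 reads each. It had 2.40, 0.981, 1.06, 0.729 and 1.06 CPM in CIA+F20 joints, 0.461, 0.363, 0.345, 0.370 and 0.744 CPM in CIA joints, and 0.573, 0.782, 0.905, 0.697 and 1.12 CPM in healthy joints. Only the lowest CIA+F20 library and the highest CIA library overlapped, at 0.729 and 0.744 CPM. Igf2 was 2.70-fold higher in CIA+F20 than in CIA joints (log2 1.43 ± 0.34, edgeR adjusted p = 0.00919), and the call held with any 1 library left out. In CIA versus healthy the log2 difference was -0.84 ± 0.34 (edgeR adjusted p = 0.0582), and it passed the threshold without CIA 5 (-1.09, edgeR adjusted p = 0.0190) or without CIA+F20 1 (edgeR adjusted p = 0.0208).

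Igf1r (ENSMUSG00000005533, chr7:67602575-67883416 on the plus strand) encodes the receptor, and its values separated all 3 groups. It had 32.2, 32.6, 37.4, 27.0 and 27.9 CPM in CIA+F20 joints, 39.8, 87.2, 41.2, 103 and 42.3 CPM in CIA joints, and 25.2, 26.1, 25.1, 26.5 and 25.0 CPM in healthy joints. The healthy libraries lay within a narrow band, while 2 CIA libraries, CIA 2 and CIA 4, stood far above the other 3. The difference was 1.29 ± 0.24 on the log2 scale in CIA versus healthy (edgeR adjusted p = 0.00102) and -0.996 ± 0.24 in CIA+F20 versus CIA (edgeR adjusted p = 0.00968). All CIA libraries lay above all healthy ones, an order shown by 11.7% of genes tested (24.3% did not overlap in either direction). All CIA+F20 libraries lay below all CIA ones, as in 5.32% of genes (13.6% in either direction).

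All 5 CIA+F20 libraries also lay above all 5 healthy libraries for Igf1r, an order that 1.98% of genes showed (1.27% showed the opposite order). The difference of 0.30 ± 0.24 on the log2 scale did not pass the test (edgeR adjusted p = 0.816). This SE rests on a spread estimated over all 3 groups, including the CIA libraries. The SD of Igf1r was 47.9% of the mean in CIA, 13.3% in CIA+F20 and 2.67% in healthy libraries. CIA 4 and CIA 2, with the most Igf1r, were the libraries with the least muscle marker RNA. CIA 3 and CIA 5, with 9.65% and 9.62% of raw counts in muscle markers, had 41.2 and 42.3 CPM of Igf1r. Their CPM scaling factors were 1.08 and 1.06, against 0.883 to 0.957 in healthy libraries, so these shares and CPM are on different scales. CIA 1, at 6.90% muscle markers, had 39.8 CPM. CIA 4 and CIA 2 also had the highest macrophage marker sums, 0.143% and 0.139% of counts, followed by CIA 1 at 0.0973%. Over the 15 libraries, log2 Igf1r had a Pearson r of -0.91 with the muscle, 0.79 with the macrophage and 0.72 with the neutrophil sum. After removing group means these were -0.75, 0.38 and 0.40. For the vessel wall (mural) and fat cell marker sums r was -0.83 and -0.69, and -0.64 and -0.62 after removing group means. The part of these cell types in the Igf1r difference was not tested. With CIA 1, CIA 2 and CIA 4 left out, a choice made after seeing the data, only CIA 3 and CIA 5 remained as CIA libraries. Igf1r was then higher in CIA than in healthy joints, at 0.68 ± 0.10 on the log2 scale (edgeR adjusted p = 0.00228). The difference between CIA+F20 and CIA was -0.40 ± 0.10 (edgeR adjusted p = 0.0541). With all libraries and the muscle marker score of each as a covariate, the Igf1r difference was 0.15 ± 0.22 in CIA versus healthy (edgeR adjusted p = 0.755). In CIA+F20 versus CIA it was -0.06 ± 0.20 (edgeR adjusted p = 0.932). This score is the mean log2 CPM of the muscle markers. It was 10.37 to 11.49 in CIA, 11.54 to 11.79 in CIA+F20 and 11.71 to 11.94 in healthy libraries. All CIA libraries thus lay below all others, so this fit can hardly separate the score from the CIA group. CIA 3 and CIA 5 scored 11.49 and 11.33, so leaving out the other CIA libraries does not remove the difference in muscle score. In bulk tissue, a change in the number of cells of a type and a change in RNA per cell cannot be told apart.

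**Figure D3:**
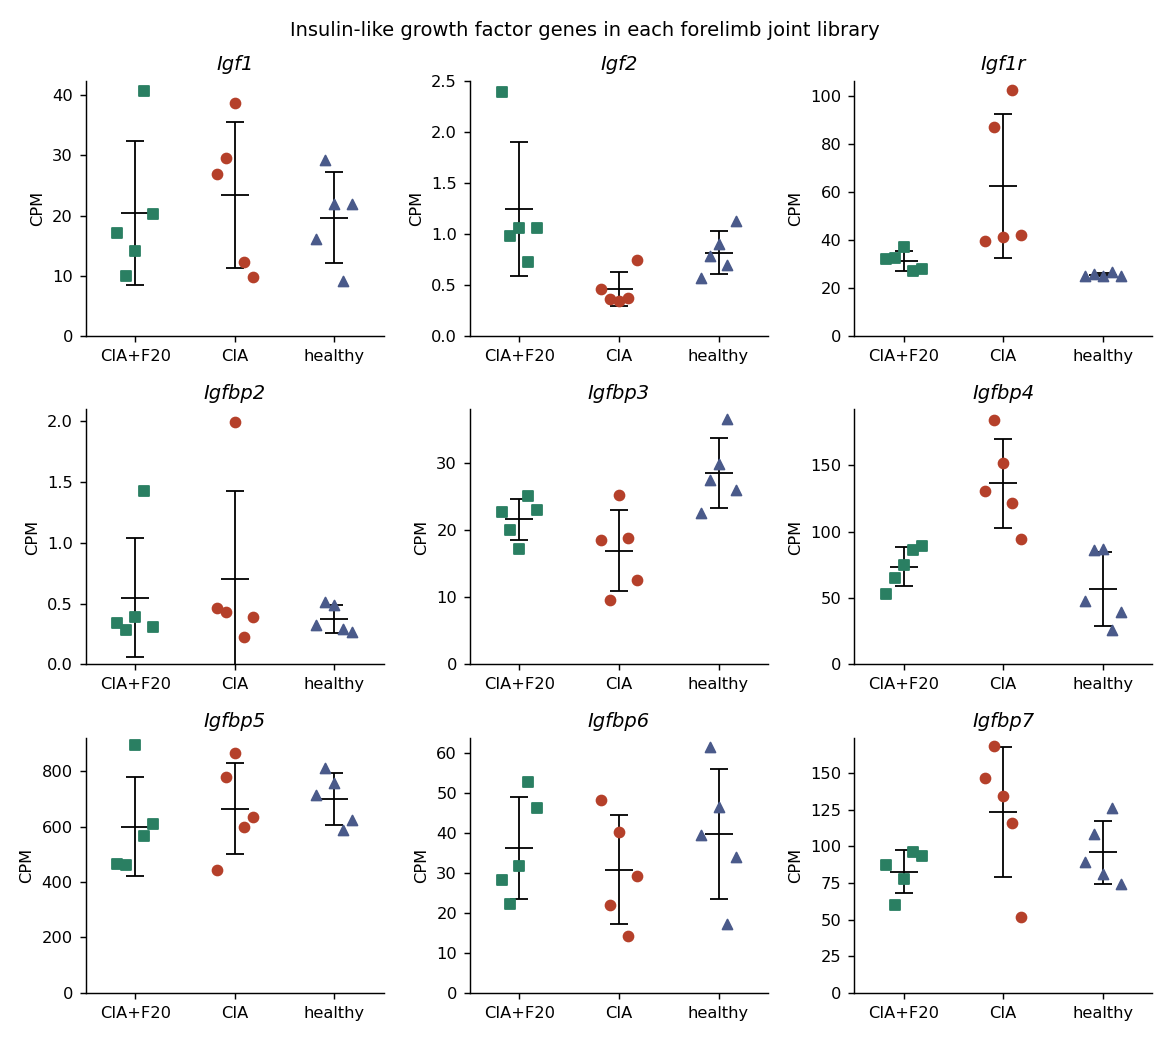
CPM of each of the 9 genes in each library, by group, with the mean and SD of 5 libraries as bars, the bars being cut at 0 where the SD is larger than the mean. For Igf1r the CIA libraries reach 103 CPM and none falls below 39.8, whereas the healthy libraries lie between 25.0 and 26.5 CPM.

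Igfbp4 (ENSMUSG00000017493, chr11:98932070-98945218 on the plus strand) encodes a binding protein known as an inhibitor of IGF action, which PAPP-A cleaves. It had 53.3, 64.8, 74.9, 85.8 and 89.0 CPM in CIA+F20 joints, 131, 184, 151, 122 and 94.7 CPM in CIA joints, and 47.7, 86.1, 86.7, 25.6 and 39.3 CPM in healthy joints. Every CIA library was above every library of the other groups, which overlapped each other. Of all genes tested, 11.7% lay above healthy without overlap in CIA, and 5.32% lay below CIA without overlap in CIA+F20. The log2 difference was 1.26 ± 0.29 in CIA versus healthy (edgeR adjusted p = 0.00370) and -0.89 ± 0.29 in CIA+F20 versus CIA (edgeR adjusted p = 0.0346).

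The Igfbp4 call in CIA+F20 versus CIA lost significance without CIA 2 (edgeR adjusted p = 0.0881) and without CIA+F20 1, 2, 3 or 4 (edgeR adjusted p = 0.0806, 0.0710, 0.0619 and 0.0524), always in the same direction. The 3 genes whose log2 CPM ran closest to Igfbp4 over the 15 libraries, of 9093 searched, were Csf1r, Rab3il1 and C1qc (Pearson r = 0.97, 0.96 and 0.94, and 0.92, 0.90 and 0.90 after removing group means). Csf1r and C1qc belong to the macrophage marker list, whose sum as a percent of counts was higher in every CIA library than in any other library. The gap was narrow, at 0.0486% in CIA 3 against 0.0465% in CIA+F20 5, whose CPM scaling factors were 1.08 and 0.994. On the CPM scale used for Igfbp4, the macrophage sum of CIA 3 was below that of CIA+F20 5. The osteoclast marker sum, as a percent of counts, was higher in every CIA library than in any other library. Pearson r of log2 Igfbp4 was 0.91 with the macrophage sum, 0.83 with osteoclast, 0.72 with fibroblast, 0.59 with tendon and -0.71 with muscle markers. After removing group means these were 0.77, 0.53, 0.67, 0.64 and -0.28. The part of these cell types in the Igfbp4 difference was not tested.

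Igfbp3 (ENSMUSG00000020427, chr11:7156086-7163923 on the minus strand) encodes the main carrier of IGFs in blood. It had 22.8, 20.03, 17.2, 25.1 and 23.0 CPM in CIA+F20 joints, 18.6, 9.61, 25.2, 18.9 and 12.6 CPM in CIA joints, and 22.6, 27.6, 29.9, 36.7 and 26.0 CPM in healthy joints. CIA 3, at 25.2 CPM, was the only CIA library inside the healthy range. Igfbp3 fell in CIA relative to healthy joints (log2 -0.75 ± 0.21, edgeR adjusted p = 0.0111), and with any 1 library left out the call held. Between CIA+F20 and CIA joints the log2 difference was 0.35 ± 0.21 (edgeR adjusted p = 0.215), and it passed the threshold without CIA 3 (0.54, edgeR adjusted p = 0.0465).

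**Figure D4:**
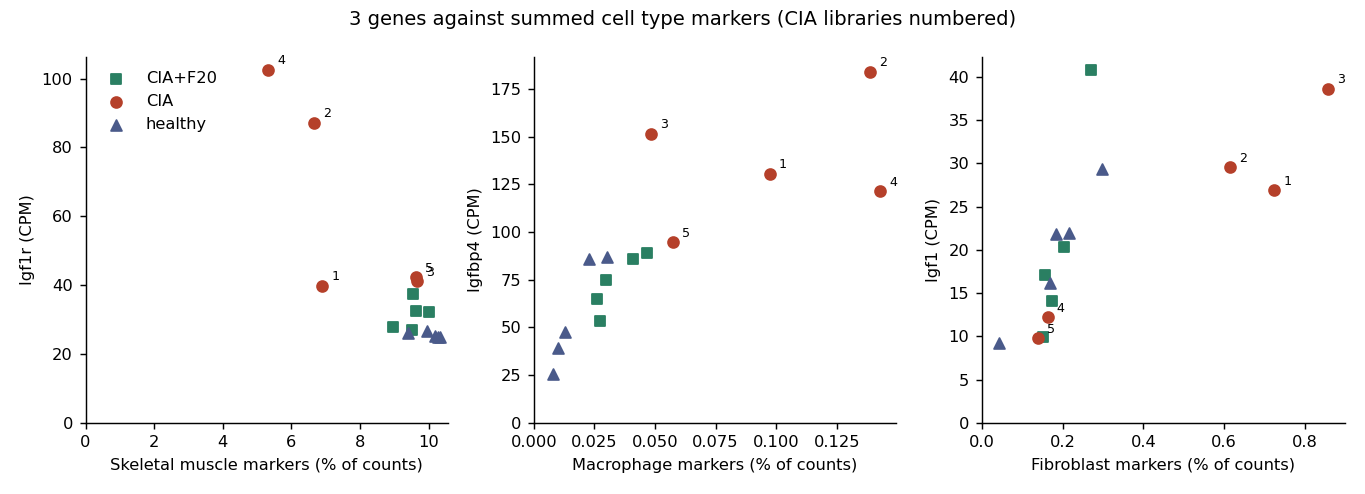
Igf1r against skeletal muscle markers, Igfbp4 against macrophage markers and Igf1 against fibroblast markers, with genes in CPM, marker sums as percent of counts and 1 point per library (CIA libraries numbered). CIA 4 and CIA 2 combine the lowest muscle shares with the highest Igf1r, and all CIA points lie to the upper right in the Igfbp4 panel.

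The other binding proteins passed no test in any comparison. Igfbp5 (ENSMUSG00000026185, chr1:72897091-72914043 on the minus strand) had 466, 462, 896, 566 and 610 CPM in CIA+F20 joints, 445, 779, 866, 600 and 633 CPM in CIA joints, and 713, 812, 757, 587 and 623 CPM in healthy joints. These are the best measured values of the family, from 266583 reads in all, and the groups overlapped, with a log2 difference of -0.07 ± 0.20 in CIA versus healthy (edgeR adjusted p = 0.786) and -0.15 ± 0.20 in CIA+F20 versus CIA (edgeR adjusted p = 0.588). Its neighbour Igfbp2 (ENSMUSG00000039323, chr1:72863662-72891633 on the plus strand), which lies 5.46 kilobases away, had only 223 reads over all 15 libraries. Igfbp2 lay between 0.286 and 1.43 CPM in CIA+F20 joints, 0.222 and 1.995 CPM in CIA joints, and 0.265 and 0.510 CPM in healthy joints, and 1 library in each arthritic group made its top value. No difference in Igfbp2 was called (log2 0.87 ± 0.61 in CIA versus healthy, edgeR adjusted p = 0.254, and -0.32 ± 0.58 in CIA+F20 versus CIA, edgeR adjusted p = 0.694).

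Igfbp6 (ENSMUSG00000023046, chr15:102052797-102057946 on the plus strand), whose product prefers IGF2 over IGF1, had 28.2, 22.3, 31.8, 52.7 and 46.2 CPM in CIA+F20 joints, 48.2, 21.9, 40.4, 14.3 and 29.3 CPM in CIA joints, and 39.6, 61.4, 46.4, 17.4 and 34.0 CPM in healthy joints. The groups overlapped widely (log2 -0.37 ± 0.35 in CIA versus healthy, edgeR adjusted p = 0.406, and 0.24 ± 0.35 in CIA+F20 versus CIA, edgeR adjusted p = 0.624). Igfbp7 (ENSMUSG00000036256, chr5:77497087-77555888 on the minus strand), a related secreted protein with low affinity for IGFs that is known in blood vessels, had 87.1, 60.3, 77.5, 96.1 and 93.3 CPM in CIA+F20 joints, 147, 168, 135, 116 and 51.8 CPM in CIA joints, and 89.7, 109, 81.4, 126 and 74.0 CPM in healthy joints. CIA 5 was the lowest library of all, whereas the other 4 CIA libraries lay above every CIA+F20 library. With CIA 5 included the log2 difference was 0.36 ± 0.25 in CIA versus healthy (edgeR adjusted p = 0.246) and -0.57 ± 0.25 in CIA+F20 versus CIA (edgeR adjusted p = 0.0908), and without it both passed the threshold (0.56, edgeR adjusted p = 0.0154, and -0.77, edgeR adjusted p = 0.00410). Igfbp7 overlaps Polr2b on the opposite strand, Igf1 overlaps Igf1os and Igf2 overlaps Igf2os, and since no source used here gives the strand setting of the counting, reads of such pairs may not be separable.

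The genes that ran closest to the other members over the 15 libraries are given as a description, by Pearson r of log2 CPM among the same 9093 genes. For Igf1r they were Ugcg, Klf6 and Tor2a (r = 0.98 each, and 0.96, 0.95 and 0.94 after removing group means), and for Igf1 they were Ptgfrn, Fbn1 and Mfap5 (r = 0.93, 0.92 and 0.91). Igfbp6 ran with Scara5, Htra3 and Ccn3 (r = 0.97, 0.96 and 0.94), and Igfbp7 with F11r, Atox1 and Fmnl3 (r = 0.93, 0.92 and 0.91). Igfbp3 ran with Fbxo34, Crem and Nmrk2 (r = 0.89, 0.88 and 0.87), and Igf2 with Inpp4b, Kcnma1 and Coq8a (r = 0.86, 0.86 and 0.85). The least matched were Igfbp2, with Plce1, Cpxm2 and Itgb4 (r = 0.78, 0.77 and 0.76), and Igfbp5, with Sumf2, Ubl5 and Crtc3 (r = 0.74, 0.72 and 0.71). All genes of a library share its depth and tissue mix, and the values include the differences between groups.

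Of 48 other genes of the pathway that could be tested, 10 rose and 14 fell in CIA relative to healthy joints, where 26.0% of all genes tested rose and 19.5% fell. With F20, 8 rose and 5 fell relative to CIA joints, where 14.1% of all genes rose and 15.5% fell. In CIA+F20 versus healthy none was called by edgeR or DESeq2, and 4 had an unadjusted p under 0.05. The median log2 fold change of the 48 was 0.03 in CIA versus healthy and 0.04 in CIA+F20 versus CIA, beside 0.07 and -0.06 over all genes tested. Of the adaptors that sit directly under the receptor, 1 of 7 rose and 4 of 7 fell in CIA. In the same comparison, the receptors had 1 of 3 higher and 1 lower, binding protein processing 1 of 6 higher, the growth hormone axis 2 of 5 higher, the PI3K-AKT list 3 of 12 higher and 4 lower, the FoxO-mTOR list 2 of 12 higher and 5 lower, and the Igf2 RNA list 0 of 3. The shares over all genes in this comparison were the same 26.0% higher and 19.5% lower.

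Grb14, an adaptor known to inhibit the insulin receptor, had 63.2, 97.5, 76.4, 92.2 and 111 CPM in CIA+F20 joints, 44.6, 20.7, 42.3, 12.6 and 27.7 CPM in CIA joints, and 88.2, 106, 93.6, 110 and 101 CPM in healthy joints. All CIA libraries lay below all others, with a log2 difference of -1.76 ± 0.27 in CIA versus healthy (edgeR adjusted p = 0.000406) and 1.57 ± 0.27 in CIA+F20 versus CIA (edgeR adjusted p = 0.00301). Of all genes tested, 12.5% were lower without overlap in CIA versus healthy and 8.28% higher without overlap in CIA+F20 versus CIA. Irs1, the docking protein that carries the receptor signal to PI3K, averaged 16.4 ± 7.28 CPM in CIA+F20 joints, 6.98 ± 3.25 in CIA joints and 23.2 ± 4.43 in healthy joints (SD, n = 5 each). It fell in CIA (log2 -1.74 ± 0.34, edgeR adjusted p = 0.00128) and was higher with F20 (1.23 ± 0.33, edgeR adjusted p = 0.0161). Its relative Irs2 averaged 33.7 ± 12.0 CPM in CIA+F20 joints, 27.8 ± 9.74 in CIA joints and 68.0 ± 50.3 in healthy joints, where healthy 4 alone reached 153 CPM. Irs2 fell in CIA (log2 -1.29 ± 0.41, edgeR adjusted p = 0.0204), but not past the threshold without healthy 4 (-0.75, edgeR adjusted p = 0.0755), and its difference in CIA+F20 versus CIA was 0.28 ± 0.41 (edgeR adjusted p = 0.623). Shc1, the adaptor that links the receptor to Ras, went the other way, at 30.6 ± 1.204 CPM in CIA+F20 joints, 46.1 ± 7.76 in CIA joints and 27.8 ± 2.73 in healthy joints (SD, n = 5 each). Its log2 difference was 0.73 ± 0.11 in CIA versus healthy (edgeR adjusted p = 0.000288) and -0.59 ± 0.11 in CIA+F20 versus CIA (edgeR adjusted p = 0.00324).

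Around the ligands and binding proteins, Pappa, the gene of the protease that cuts IGFBP4, averaged 0.720 ± 0.517 CPM in CIA+F20 joints, 1.995 ± 0.690 in CIA joints and 0.451 ± 0.268 in healthy joints (SD, n = 5 each). These values rest on 7 to 46 reads per CIA+F20 library, 34 to 82 per CIA library and 3 to 22 per healthy library. Pappa was higher in CIA (log2 2.10 ± 0.49, edgeR adjusted p = 0.00373) and lower with F20 (-1.46 ± 0.47, edgeR adjusted p = 0.0331), the second call being lost without CIA 1, 2 or 4 or without CIA+F20 1, 2, 3 or 4 (highest edgeR adjusted p = 0.0803). Stc2, an inhibitor of PAPP-A, had a log2 difference of 0.16 ± 0.43 in CIA versus healthy (edgeR adjusted p = 0.772). Igf2r, the receptor that clears IGF2, averaged 132 ± 10.9 CPM in CIA+F20 joints, 118 ± 26.5 in CIA joints and 130 ± 9.37 in healthy joints and passed no test. Insr, the insulin receptor, fell in CIA (log2 -0.32 ± 0.12, edgeR adjusted p = 0.0424), a call lost with 10 of the 15 libraries left out in turn (highest edgeR adjusted p = 0.107), and was higher with F20 (0.40 ± 0.12, edgeR adjusted p = 0.0266), lost with 6 of the 15 left out in turn. Ghr, the growth hormone receptor, averaged 194 ± 15.1 CPM in CIA+F20 joints, 143 ± 57.6 in CIA joints and 195 ± 10.6 in healthy joints. Its difference of -0.45 ± 0.21 on the log2 scale in CIA versus healthy did not pass (edgeR adjusted p = 0.0935), except without CIA 3 or CIA 5 (edgeR adjusted p = 0.0162 and 0.0353), and in CIA+F20 versus CIA it was 0.44 ± 0.21 (edgeR adjusted p = 0.123, and 0.0257 and 0.0483 without CIA 3 or CIA 5).

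Further down the pathway, Inpp5d, a blood cell phosphatase that removes the lipid signal of PI3K, averaged 9.96 ± 2.47 CPM in CIA+F20 joints, 23.9 ± 12.7 in CIA joints and 5.17 ± 2.05 in healthy joints (SD, n = 5 each). It was higher in CIA (log2 2.21 ± 0.35, edgeR adjusted p = 0.000461) and lower with F20 (-1.26 ± 0.34, edgeR adjusted p = 0.0155). Beside it, the neutrophil marker sum averaged 0.0396% of counts in CIA+F20, 0.128% in CIA and 0.00947% in healthy libraries, and the macrophage marker sum averaged 0.0341% in CIA+F20, 0.0969% in CIA and 0.0168% in healthy libraries. Their part in the Inpp5d difference was not tested. Its widely expressed relative Inppl1 did the opposite, at -0.42 ± 0.10 in CIA versus healthy (edgeR adjusted p = 0.00443) and 0.44 ± 0.10 in CIA+F20 versus CIA (edgeR adjusted p = 0.00842). Phlpp1, an AKT phosphatase, had 20.02 ± 0.861 CPM in CIA+F20 joints, 15.9 ± 1.29 in CIA joints and 20.9 ± 0.884 in healthy joints, and passed in both comparisons (edgeR adjusted p = 0.00614 in CIA+F20 versus CIA and 0.000853 in CIA versus healthy). Rptor, the scaffold of mTOR complex 1, had 56.0 ± 3.27 CPM in CIA+F20 joints, 41.3 ± 6.94 in CIA joints and 58.5 ± 2.202 in healthy joints, and likewise passed in both (edgeR adjusted p = 0.00616 in CIA+F20 versus CIA and 0.00107 in CIA versus healthy). Gsk3b, a kinase that AKT inhibits, was lower in CIA than in healthy joints (log2 -0.29 ± 0.08, edgeR adjusted p = 0.0109) and higher in CIA+F20 than in CIA joints (0.31 ± 0.08, edgeR adjusted p = 0.0149).

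With the muscle marker score as a covariate, no member and no other pathway gene was called in any comparison, and 16 genes of all those tested were called in CIA versus healthy and 1 in CIA+F20 versus CIA. Since the score was lower in every CIA library than in any other library, this fit can hardly separate the score from the CIA group. With CIA 1, CIA 2 and CIA 4 left out, Igfbp4 (log2 1.08 ± 0.39, edgeR adjusted p = 0.0708) and Igfbp3 (-0.62 ± 0.25, edgeR adjusted p = 0.101) were no longer called in CIA versus healthy. Igfbp4 (-0.73 ± 0.39, edgeR adjusted p = 0.333) and Igf2 (1.19 ± 0.49, edgeR adjusted p = 0.201) were then no longer called in CIA+F20 versus CIA. Of the pathway genes named, Grb14, Inpp5d, Irs1, Phlpp1, Rptor and Shc1 kept their call in CIA versus healthy without these 3 libraries, Inpp5d at a log2 difference of 1.22. Stc2 then passed as higher (0.90, edgeR adjusted p = 0.0405), and Pappa did not pass (1.41, edgeR adjusted p = 0.133). In CIA+F20 versus CIA, Grb14 alone of the genes named kept its call.

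**Figure D5:**
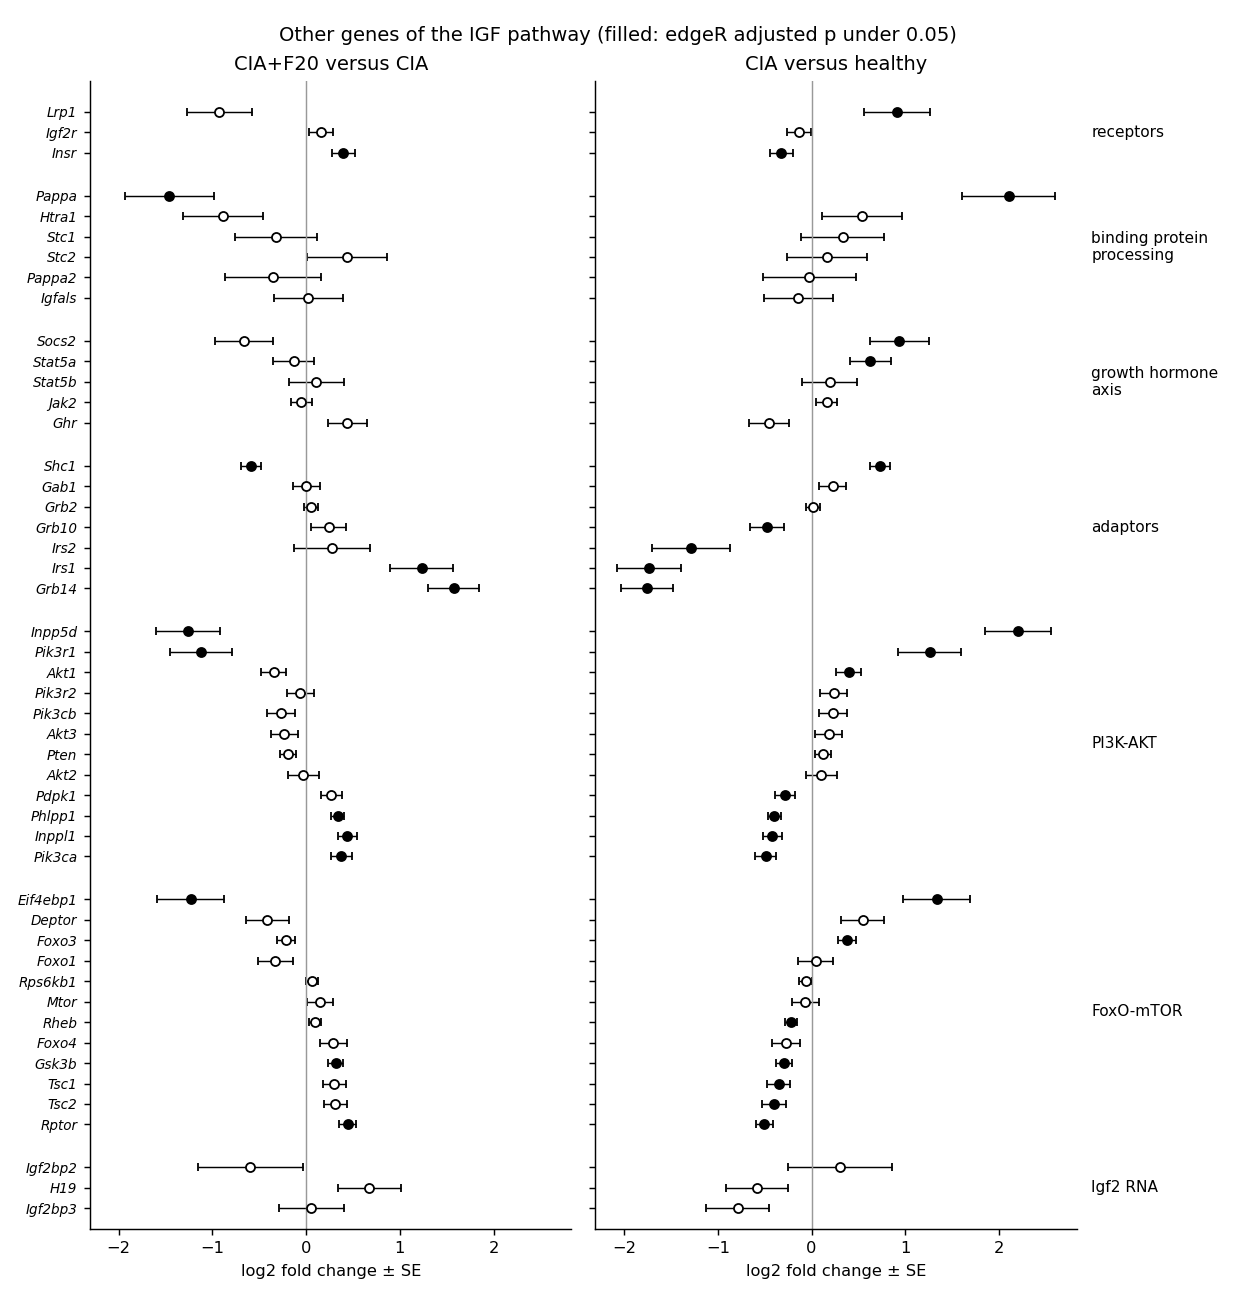
Fold change of 48 other genes of the IGF pathway by list, as log2 ± SE from edgeR, for CIA+F20 versus CIA and CIA versus healthy, with filled points for an adjusted p under 0.05 over all genes. Grb14 and Irs1 lie right of 0 in the panel of CIA+F20 versus CIA and left of 0 in that of CIA versus healthy, and Inpp5d, Pappa and Shc1 the other way round.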

How the data were processed

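RNA of 15 forelimb joint libraries was analysed from the whole-read count table deposited by the authors, with no normalization and 1 row per gene. Per the submitters' processing notes, fastp 0.23.2, HISAT2 2.2.1 and featureCounts 2.0.3 were used with GRCm39; these notes name no annotation release, strand setting or rule for reads that match several places. Groups came from the sample titles, and gene coordinates from the table.

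Counts were tested in R 4.3.3 with edgeR 4.0.16: filterByExpr (minimum count 10) kept 15770 genes and left out 10918, TMM scaled the libraries, and glmQLFit with glmQLFTest fitted all 3 groups together (biological coefficient of variation 27.8%), with Benjamini-Hochberg adjustment over all genes tested. SE is that of the log2 fold change, and CPM uses TMM library sizes. Exon lengths came from merged GENCODE vM39 exons. The test was checked on simulated counts for CIA versus healthy. It called 28% of genes set to a 1.5-fold change, 76% at 2-fold, 84% at 3-fold and 94% at 4-fold. Of 15570 unchanged genes it called 9. A member with a change near 1.5-fold could thus often go uncalled. Alternatives were DESeq2 1.42.0, its size factors, no filter, only the groups compared, a replicate block, a muscle marker covariate, counts without mitochondrial and muscle marker reads, and each library left out in turn.

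The members, 7 pathway lists (52 genes, 51 in the table, 48 tested) and 15 marker lists were chosen with earlier results of these data known. Named pathway genes are up to 6 with the lowest p per comparison plus Igf2r, Insr, Irs1, Irs2, Pappa, Stc2 and Ghr. Likeness was searched among genes with a mean log2 CPM of at least 3.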

Additional observations from a re-analysis of the deposited data

Results flagged for a closer look

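In 4 of 30 groups of 5 libraries checked, 1 library stood far from the rest of its group, and chance alone sets about 1 in 20 groups apart in this way. Igf2 was 2.40 CPM in CIA+F20 1, where the next highest CIA+F20 library had 1.06 CPM, and 0.744 CPM in CIA 5, where the next CIA library had 0.461 CPM. Igfbp2 was 1.43 CPM in CIA+F20 4, where the next CIA+F20 library had 0.389 CPM, and 1.995 CPM in CIA 3, where the next CIA library had 0.461 CPM. Both genes rest on few reads, and CIA+F20 4 and CIA 3 were also the libraries with the most Igf1 in their groups, at 40.8 and 38.6 CPM.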

How the results depend on the processing

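DESeq2, its size factors, no low-count filter and the removal of mitochondrial and muscle marker reads changed no call or direction of the 9 members. With the muscle score as a covariate, members called went to 0 higher and 0 lower, and other pathway genes to 0 and 0, in CIA+F20 versus CIA and in CIA versus healthy. That fit can hardly separate the muscle score from the CIA group, whose scores lay below all others. The log2 difference then changed sign for Igfbp6 in CIA+F20 versus CIA (-0.26), CIA+F20 versus healthy (0.0067) and CIA versus healthy (0.27), for Igfbp7 (-0.0791), Ghr (0.48) and Insr (0.0645) in CIA versus healthy, and for Ghr (-0.28), Inpp5d (0.0689) and Stc2 (-0.82) in CIA+F20 versus CIA. Without CIA 1, 2 and 4, a choice made after seeing the data, 0 members were higher and 0 lower in CIA+F20 versus CIA, with 1 pathway gene higher and 0 lower; in CIA versus healthy 1 member was higher and 0 lower, with 5 pathway genes lower. Signs changed for Ghr (-0.0414) and Stc2 (-0.31) in CIA+F20 versus CIA, and for Igfbp5 (0.0751), Igfbp7 (-0.0692) and Ghr (0.0174) in CIA versus healthy. With only the groups compared, 3 pathway genes were lower in CIA+F20 versus CIA and 2 members lower in CIA versus healthy (Igf2 added, edgeR adjusted p = 0.0357), and Igfbp2 had no value in CIA+F20 versus healthy. Insr lost its call with only the groups compared in CIA+F20 versus CIA (edgeR adjusted p = 0.0566) and CIA versus healthy (0.0753), and with no low-count filter in CIA versus healthy (0.0635). The cause of these shifts was not tested.

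With each library left out in turn, 1 to 2 members were higher and 1 to 3 lower in CIA+F20 versus CIA, with 6 to 15 and 2 to 6 pathway genes, and 2 to 3 were higher and 1 to 2 lower in CIA versus healthy, with 6 to 10 and 10 to 17 pathway genes. The log2 range crossed 0 for Igf1 (-0.60 to 0.0644) and Igfbp2 (-1.06 to 0.57) in CIA+F20 versus CIA, for Igf1 (-0.36 to 0.24), Igfbp2 (-0.19 to 0.70) and Igfbp6 (-0.32 to 0.0758) in CIA+F20 versus healthy, and for Igf1 (-0.0116 to 0.44), Igfbp2 (-0.0228 to 1.09), Igfbp5 (-0.19 to 0.0430) and Stc2 (-0.22 to 0.40) in CIA versus healthy. Few reads limit Igf2, Igfbp2 and Pappa.

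The titles share replicate numbers, but same-numbered libraries did not deviate together in every pair (correlations of -0.382 to 0.220 in CIA+F20 versus CIA and -0.395 to 0.243 in CIA versus healthy), and not every library correlated best with its own number. With the replicate block, Igfbp4 in CIA+F20 versus CIA had an edgeR adjusted p of 0.0542, leaving 1 member lower there, with 3 pathway genes lower, and Stc2 changed sign in CIA versus healthy (-0.0395).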
